A study of Mus musculus with 9 samples.

Results

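CSS12 is a chromosome substitution strain (C57BL/6J-Chr12A/J/NaJ) that carries Chromosome 12 of A/J mice, while every other chromosome is C57BL/6J by design. Whole lung expression was compared between 3 CSS12 mice and 3 C57BL/6J mice, with 1 Affymetrix Gene 2.0 ST array per mouse. All probesets with a unique gene symbol in the platform's annotation entered the description, 23521 of 41345, and they were divided into 813 on Chromosome 12 (761 genes), 22704 on all other chromosomes (21386 genes) and 4 without a chromosome. BcA86 lungs were also on arrays, from 3 mice. BcA86 is a recombinant congenic strain of mostly C57BL/6J genome whose A/J segments include Chromosome 12 from about *Hdac9* onwards and stretches of other chromosomes. The question was which genes on Chromosome 12 differ in expression between strains of high and low airway responsiveness to methacholine. All animals were naïve, untreated young adults kept free of pathogens, killed with CO2, with lungs placed in RNAlater. CSS12 and C57BL/6J breeding pairs came from The Jackson Laboratory. The methods give a single range of ages for all animals, and neither the sex of each mouse nor the hour of collection is given in the sources used here. Genotypes of the individual mice were not analysed here.

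A chromosome substitution strain places all variants of a donor chromosome on a fixed background. A gene on the donor chromosome can differ through variants in its own regulatory sequence, which act in cis, while genes on other chromosomes carry the same alleles in both strains and can differ through products of the donor chromosome, which act in trans, or through the state of the animal. Among signals that set the state of the lung are glucocorticoid hormones, which bind a nuclear receptor and induce a set of genes in epithelium, muscle and blood cells. In whole lung, fewer cells of a type and less RNA per cell cannot be told apart.

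Values are log2 expression values, and a log2 fold change above 0 means higher expression in CSS12. A gene was called at an adjusted p under 0.05 from limma, adjusted over all 41345 probesets. Array medians lay between 6.082 and 6.128, and mean correlations with arrays of the same strain between 0.99003 and 0.99188. Genes of alveolar epithelial cells, which define lung tissue, averaged 11.76 to 11.79 in CSS12, 11.77 to 11.82 in BcA86 and 11.76 to 11.80 in C57BL/6J arrays over 18 genes. CSS12 replicate 2 stood apart in some genes. *Clca1*, a product of mucous airway cells, was at 5.75, 12.48 and 7.96 in CSS12 and at 6.21, 5.74 and 5.58 in C57BL/6J lungs, and *Muc5ac*, a mucin, at 6.27, 9.88 and 6.81 in CSS12 and 6.12, 6.18 and 5.68 in C57BL/6J lungs. Counts of calls on Chromosome 12 and elsewhere are therefore also given without this array, and the *Chil3* and cell cycle levels below were also highest in it. Over all probesets it was not the most deviant CSS12 array. In it 396 probesets lay 2-fold or more from the mean of the other 2, against 462 for replicate 1 and 316 for replicate 3.

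On Chromosome 12, 13 of 813 probesets were called (1.6%), 7 higher and 6 lower in CSS12. On the other chromosomes 48 of 22704 were called (0.211%), 39 higher and 9 lower, and 1 without a chromosome was lower. Over all probesets the share was 0.22%, or 91, with 0.143% higher and 0.0774% lower, and 29 of these carry no symbol or several. The shares of the single other chromosomes did not go above the 0.53% of Chromosome 19 (4 of 755). At an unadjusted p under 0.05 the shares were 15.7% on Chromosome 12 and 10.3% elsewhere, with the highest on the Y chromosome (35.1%, 13 of 37). A fold of at least 2 was seen for 6 probesets on Chromosome 12 (0.738%) and for 47 elsewhere (0.207%). The median absolute log2 fold change was 0.10 on Chromosome 12 and 0.08 elsewhere, so most genes of the substituted chromosome had values close to those of C57BL/6J. Without CSS12 replicate 2, 7 probesets were called on Chromosome 12 and 9 elsewhere, all among the calls above. Leaving out CSS12 replicate 3 gave the fewest calls, 2 on Chromosome 12 and 4 elsewhere. A fit of these 6 arrays alone called 0 on Chromosome 12 (108 at an unadjusted p under 0.05) and 3 elsewhere, whereas Cyber-T, the methods' test, called 50 (6.15%) and 438 (1.93%) at the same adjusted p. At the methods' own threshold, an unadjusted p with a fold limit, Cyber-T gave 39 (4.8%) and 374 (1.65%).

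*Nrcam*, which encodes a cell adhesion molecule of the immunoglobulin superfamily, had the highest fold on Chromosome 12. Its values were 8.18, 8.46 and 8.19 in CSS12, 8.46, 8.53 and 8.65 in BcA86 and 6.87, 7.0 and 6.65 in C57BL/6J lungs. The groups did not overlap, and expression in CSS12 was 2.7 times that in C57BL/6J (log2 fold change 1.43, standard error 0.11, adjusted p = 0.00767). *Inf2*, a formin that assembles and severs actin filaments, was at 8.43, 8.38 and 8.25 in CSS12, 8.12, 8.16 and 8.11 in BcA86 and 7.55, 7.54 and 7.55 in C57BL/6J lungs. It rose by 0.81 (standard error 0.06, adjusted p = 0.00767), and the C57BL/6J values were almost the same in the 3 mice. *Nrcam* and *Inf2* were the only genes of the chromosome still called whichever of the 9 arrays was left out.

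The other higher genes ran from 0.63 to 0.94. *Clba1*, a protein with a clathrin binding box, had a mean of 8.30 ± 0.18 in CSS12 and 7.36 ± 0.13 in C57BL/6J (SD, n = 3 each, log2 fold change 0.94, adjusted p = 0.0157). *Klhl29*, of the kelch-like family, was at 8.12, 7.93 and 8.16 in CSS12, 7.28, 7.41 and 7.32 in BcA86 and 7.11, 7.34 and 7.06 in C57BL/6J lungs (0.90, standard error 0.10, adjusted p = 0.0149). Only CSS12 was high for this gene. *Jag2*, a ligand of Notch receptors, had a mean of 8.72 ± 0.10 in CSS12 and 8.08 ± 0.05 in C57BL/6J (0.63, adjusted p = 0.0179). *5830428M24Rik* rose by 0.66 (adjusted p = 0.0264) and *C87198* by 0.63 (adjusted p = 0.0169), 2 transcripts whose roles are not annotated in the sources used here.

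*Sox11*, a transcription factor of developing tissues, had the largest decrease among the genes other than immunoglobulins. It was at 5.88, 5.33 and 5.73 in CSS12, 6.79, 6.80 and 6.74 in BcA86 and 6.95, 7.13 and 7.06 in C57BL/6J lungs. Its expression was 2.64 times higher in C57BL/6J (log2 fold change −1.40, standard error 0.13, adjusted p = 0.0091). *Iah1*, an esterase, was at 7.81, 7.51 and 7.72 in CSS12, 8.63, 8.58 and 8.67 in BcA86 and 8.40, 8.44 and 8.51 in C57BL/6J lungs (−0.77, standard error 0.08, adjusted p = 0.0157). Both genes were low in CSS12 alone.

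*Snapc1*, *Eapp* and *Dtd2* were lower in CSS12 and were low in BcA86 too. *Snapc1*, part of a basal factor needed to transcribe small nuclear RNAs, was at 7.36, 7.26 and 7.43 in CSS12, 7.41, 7.37 and 7.51 in BcA86 and 7.98, 8.19 and 8.08 in C57BL/6J lungs (−0.73, standard error 0.08, adjusted p = 0.0157). *Eapp*, an E2F-associated phosphoprotein, was at 7.35, 7.35 and 7.44 in CSS12, 7.41, 7.28 and 7.30 in BcA86 and 7.89, 8.0 and 8.14 in C57BL/6J lungs (−0.63, standard error 0.08, adjusted p = 0.028). *Dtd2*, which clears D-amino acids from tRNA, had a mean of 8.87 ± 0.02 in CSS12 and 9.45 ± 0.06 in C57BL/6J (SD, n = 3 each, −0.58, adjusted p = 0.0189). The other 4 measured subunits of the Snapc1 complex lay between −0.12 and 0.01, and 0 of them were called. Of 23 measured genes with coding variants in the QTL of the study, *Snapc1* and *Eapp* were called lower, beside 0.0774% of all probesets, and 0 were called higher. The list had 14 genes above 0 and a median of 0.02, beside 0.00 over all probesets. It held 0 calls without C57BL/6J replicate 2 or 3, and 0 without any single CSS12 array. With an array left out, the call held in 4 of the 9 fits for *Snapc1* and in 1 of the 9 for *Eapp*. The study also measured these genes by quantitative RT-PCR, which bore out its array difference for *Snapc1* but not for *Eapp*.

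The lowest log2 fold change of the chromosome belonged to 1 of 7 probesets of *Ighm*, the constant region of the immunoglobulin M heavy chain. This probeset was at 2.99, 2.99 and 3.08 in CSS12, 3.36, 3.08 and 3.06 in BcA86 and 6.68, 5.48 and 6.45 in C57BL/6J lungs (−3.19, standard error 0.27, adjusted p = 0.00858). The other 6 lay between −0.71 and −0.50 with an adjusted p of 0.225 to 0.615, so the probesets of this gene disagree in size. The brightest was at 9.97, 10.12 and 9.31 in CSS12 and 10.85, 10.28 and 10.40 in C57BL/6J lungs. Among 14 heavy chain probesets with a unique symbol, 11 had values below 0. Probes that lie over A/J variants were not removed from any probeset, and their part in these differences was not tested.

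**Figure D1:**
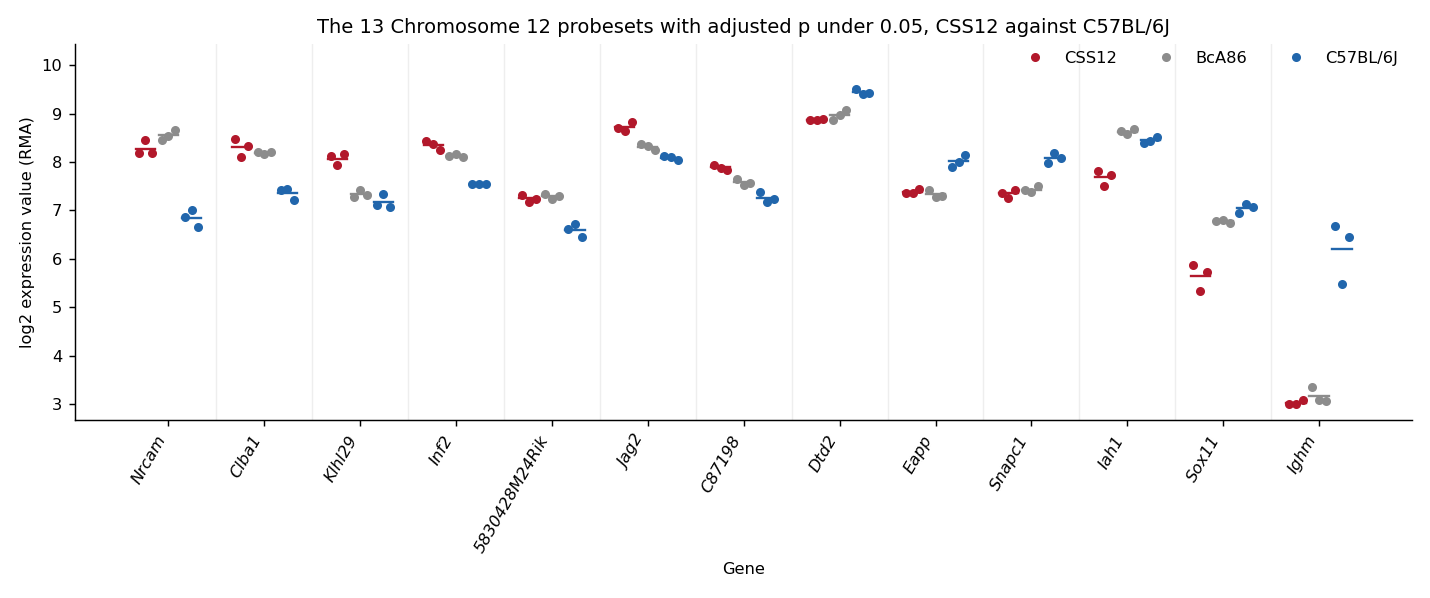
Log2 expression values of the 13 Chromosome 12 probesets called between CSS12 and C57BL/6J, with CSS12, BcA86 and C57BL/6J mice as separate points in each gene (y axis, log2 value). The 3 CSS12 values of each gene lie apart from the 3 C57BL/6J values, while BcA86 sits with CSS12 for *Nrcam*, *Snapc1* and *Eapp* and nearer C57BL/6J for *Sox11* and *Klhl29*.

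Several genes of the chromosome with a fold of at least 1.4 and no overlap did not pass the adjusted p. *Cdca7l* had −0.72 (adjusted p = 0.0636), *Gpr132*, a G protein-coupled receptor, −0.64 (adjusted p = 0.117) and *Hdac9*, a histone deacetylase, −0.65 (adjusted p = 0.136). *Vcpkmt*, a lysine methyltransferase that the study calls *Mettl21d*, had 0.56 (adjusted p = 0.242), with 7.58, 7.65 and 7.62 in CSS12 and 6.75, 7.15 and 7.28 in C57BL/6J lungs. *Acot1*, an acyl-CoA thioesterase, had 0.62 (adjusted p = 0.245). *Foxa1*, a transcription factor of airway epithelium, had −0.07 (standard error 0.09) and *Smoc1*, a calcium-binding matrix protein, 0.16 (standard error 0.19), with overlapping groups for both. The quantitative RT-PCR of the study bore out its array difference for *Vcpkmt*. This gene did not pass the adjusted p here, but its unadjusted p from limma was 0.00433. The study called genes at an unadjusted p under 0.05 with a 1.4-fold limit, which is a different threshold.

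Gene families of the chromosome were also counted as wholes. Where limma called 0 members of a list, the number at an unadjusted p under 0.05 and the number called by Cyber-T follow in parentheses, beside 10.7% and 2.61% of all probesets. Of 6 acyl-CoA thioesterases 0 were called (1 unadjusted, 1 Cyber-T), all 6 were above 0, and the median was 0.09. *Acot3* had 0.18 (standard error 0.14). Of 17 measured serpins, which are protease inhibitors mostly made by liver, 0 were called (1 unadjusted, 0 Cyber-T) and the median was −0.06. *Serpina1b* had −0.44 and *Serpina1e* 0.25, and 16 of the 17 had a mean below the median level of the arrays. Of 5 imprinted genes of the Dlk1-Dio3 region 0 were called (0 unadjusted, 0 Cyber-T), with a median of −0.08. *Dio3* had −0.17 and *Meg3* −0.10, and all 5 had a mean below that median level.

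BcA86 carries A/J sequence on Chromosome 12 only from about *Hdac9* on, so the chromosome was read in 4 stretches of gene order, with each comparison's own counts. The share called in BcA86 against C57BL/6J was 1.11% over the chromosome. Both comparisons share the C57BL/6J arrays. Before *Hdac9*, where CSS12 alone is A/J, 3 of 170 probesets were called in CSS12 (1.76%) and 0 in BcA86. At an unadjusted p under 0.05 the shares of this stretch were close, 16.5% in CSS12 and 14.7% in BcA86 (25 probesets). On other chromosomes that share was 9.75% in BcA86 and 10.3% in CSS12. From *Hdac9* up to *Eapp*, 2 of 54 were called in each (3.7%). From *Eapp* to *Smoc1*, the first and last of the listed QTL genes with coding variants (the QTL itself is bounded by markers, and reaches past *Smoc1*), 4 of 175 were called in CSS12 (2.29%) and 3 in BcA86 (1.71%). After *Smoc1*, 4 of 414 were called in each (0.966%). Without CSS12 replicate 2, the 4 stretches had 3, 1, 0 and 3 calls in CSS12.

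The test of CSS12 against BcA86, which does not use C57BL/6J means, called 6 of 170 probesets before *Hdac9* and 2 of 414 after *Smoc1*. In both middle stretches it called 0 (6 and 9 at an unadjusted p under 0.05). The shares called were 0.984% over the chromosome, 0.577% elsewhere and 0.716% of all probesets. The 3 called genes of the first stretch all differed, although the CSS12 arrays that chose them also enter this test. *Klhl29* was higher in CSS12 than in BcA86 by 0.73 (adjusted p = 0.0219), and *Sox11* had −1.13 (adjusted p = 0.0152) and *Iah1* −0.95 (adjusted p = 0.00465). In BcA86 against C57BL/6J these genes had 0.17, −0.27 and 0.18, with an adjusted p of 0.593, 0.524 and 0.511. The 10 called probesets from *Hdac9* on did not pass this test. Of these, *Jag2* came closest (0.40, adjusted p = 0.0542), and *Nrcam* had −0.27 (adjusted p = 0.402), *Inf2* 0.22 (adjusted p = 0.176) and *Eapp* 0.05 (adjusted p = 0.873). In BcA86 against C57BL/6J, *Nrcam* had 1.71 (adjusted p = 0.00121), *Inf2* 0.59 (adjusted p = 0.00846) and *Jag2* 0.23 (adjusted p = 0.314).

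**Figure D2:**
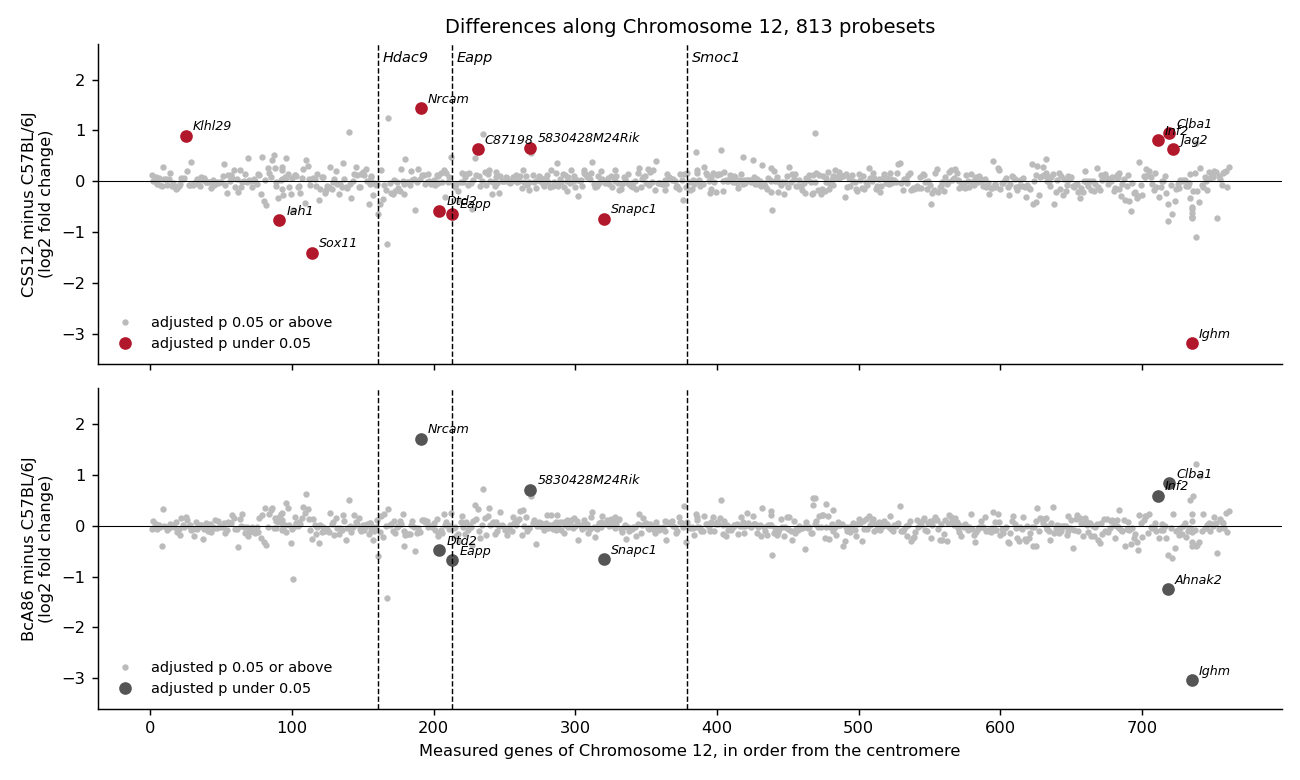
Log2 fold change of each of the Chromosome 12 probesets against C57BL/6J (y axis) in the order of the 761 genes along the chromosome (x axis, gene number), with CSS12 above and BcA86 below, called probesets marked, and dashed lines at *Hdac9*, *Eapp* and *Smoc1*. Left of *Hdac9* the CSS12 panel has 3 called probesets and the BcA86 panel 0.

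On the chromosomes that CSS12 shares with C57BL/6J, *Zbtb16*, a zinc finger transcription factor encoded on Chromosome 9, had the largest fold among the calls. It was at 11.13, 11.24 and 11.17 in CSS12, 10.18, 10.44 and 9.97 in BcA86 and 8.09, 8.72 and 9.21 in C57BL/6J lungs. Expression in CSS12 was 5.69 times that in C57BL/6J (log2 fold change 2.51, standard error 0.25, adjusted p = 0.0122), and BcA86 values lay between those of the other strains. *Fkbp5*, encoded on Chromosome 17, is a co-chaperone that lowers the hormone affinity of the glucocorticoid receptor. It was at 8.18, 8.36 and 8.59 in CSS12, 7.26, 7.20 and 7.25 in BcA86 and 6.69, 6.68 and 6.82 in C57BL/6J lungs. It rose 3.13-fold (1.65, standard error 0.10, adjusted p = 0.00722). *Fkbp5* and *Ly6a2* were the 2 genes called under all 8 alternative settings and without each array in turn. *Myrip* and *Hif3a*, described next, were also called without each array. With an array left out, the calls of *Map3k6*, *Angptl4*, *Rpl32l*, *Fbxo32*, *Rab27a*, *Plxna2*, *Ifitm6* and *Kcnj2* held in 1 of the 9 fits. Those of *Klhl38*, *Fkbp14*, *Klf9*, *Bcar3*, *Rgcc*, *Igsf6*, *Obox7*, *Phlda1*, *Fads2* and *Gm20554* held in 0 of the 9.

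*Fam107a*, an actin-binding protein known to answer stress hormones, had a mean of 9.91 ± 0.13 in CSS12, 8.43 ± 0.11 in BcA86 and 8.18 ± 0.31 in C57BL/6J lungs (SD, n = 3 each, log2 fold change 1.73, standard error 0.15, adjusted p = 0.00858). *Map3k6*, a protein kinase, was at 8.61, 8.90 and 9.04 in CSS12, 7.78, 7.75 and 7.68 in BcA86 and 7.10, 7.63 and 7.64 in C57BL/6J lungs (1.39, standard error 0.16, adjusted p = 0.0208). *Angptl4*, an inhibitor of lipoprotein lipase, was at 8.74, 8.99 and 8.69 in CSS12, 8.14, 8.13 and 8.76 in BcA86 and 7.18, 7.63 and 7.40 in C57BL/6J lungs (1.4, standard error 0.19, adjusted p = 0.0401). CSS12 was above C57BL/6J in every array for these 3 genes, and for *Angptl4* 1 BcA86 mouse reached the CSS12 range. *Hif3a*, a member of the hypoxia-inducible factor family, was at 7.15, 7.22 and 7.40 in CSS12, 6.51, 6.49 and 6.51 in BcA86 and 6.31, 6.14 and 6.30 in C57BL/6J lungs (1.01, standard error 0.08, adjusted p = 0.00767). *Myrip*, which links Rab27a on secretory granules to myosin, was at 8.44, 8.40 and 8.62 in CSS12, 7.16, 7.36 and 7.27 in BcA86 and 7.31, 7.51 and 7.40 in C57BL/6J lungs (1.08, standard error 0.09, adjusted p = 0.00767). BcA86 stayed within or just below the C57BL/6J range for *Myrip*. *Rab27a*, that small GTPase, rose by 0.54 (adjusted p = 0.0401).

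Smaller increases were called for enzymes, signalling proteins and transcription factors. *Fbxo32*, a ubiquitin ligase known from muscle atrophy, rose by 0.80 (adjusted p = 0.0311), and *Foxo3*, a forkhead transcription factor known to induce it in muscle, by 0.63 (adjusted p = 0.0244). *Klhl38*, which lies next to *Fbxo32* on Chromosome 15 with 0 measured genes between them, rose by 0.88 (adjusted p = 0.0401). *Tent5b*, a nucleotidyltransferase 3 measured genes away from *Map3k6* on Chromosome 4, rose by 0.94 (adjusted p = 0.0401). *Rab3c*, a GTPase of secretory vesicles, rose by 1.11 (adjusted p = 0.0176), *Mcf2l*, a guanine nucleotide exchange factor, by 0.77 (adjusted p = 0.013), and *Fkbp14*, a prolyl isomerase of the endoplasmic reticulum, by 0.79 (adjusted p = 0.0305). *Sult1a1*, a sulfotransferase of phenols, was at 9.73, 9.64 and 9.78 in CSS12 and 8.91, 8.89 and 9.06 in C57BL/6J lungs (0.76, adjusted p = 0.00858). *Rpl32l* rose by 0.94 (adjusted p = 0.0313) at a low level, 4.86 ± 0.14 in CSS12 and 3.92 ± 0.23 in C57BL/6J (SD, n = 3 each). The remaining 24 higher genes, listed outside the rule for named genes, ran from 0.41 for *Bcar3* to 0.75 for *Pknox2*. They include *Rgcc*, a regulator of the cell cycle (0.75), *Sema7a*, a membrane-anchored semaphorin (0.70), *Plxna2*, a semaphorin receptor (0.57), the Krüppel-like factors *Klf9* (0.57) and *Klf13* (0.48), and *Col4a3*, a collagen of basement membranes (0.50).

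Among the 9 lower genes, *Hspa1a*, an Hsp70 chaperone induced by heat and other stress, was at 8.95, 8.77 and 8.85 in CSS12, 8.81, 8.05 and 8.09 in BcA86 and 10.69, 11.66 and 10.96 in C57BL/6J lungs (−2.24, standard error 0.27, adjusted p = 0.0264). The C57BL/6J mice varied most, by almost a log2 unit. *Ly6a2*, a Ly6 family gene on Chromosome 15, was at 7.77, 7.58 and 7.52 in CSS12, 6.48, 6.46 and 6.84 in BcA86 and 10.12, 9.72 and 9.61 in C57BL/6J lungs (−2.19, standard error 0.16, adjusted p = 0.00767). All 9 values fell in separate ranges by strain, although this chromosome is C57BL/6J in CSS12 by design. *Ifitm6*, of the interferon-induced transmembrane family, was at 7.23, 7.32 and 6.90 in CSS12, 8.39, 8.50 and 8.22 in BcA86 and 8.95, 8.76 and 8.31 in C57BL/6J lungs (−1.52, standard error 0.18, adjusted p = 0.0208). *Igsf6*, an immunoglobulin superfamily gene of myeloid cells, was at 9.44, 9.52 and 9.19 in CSS12, 9.95, 10.14 and 9.96 in BcA86 and 10.08, 10.10 and 10.09 in C57BL/6J lungs (−0.70, standard error 0.10, adjusted p = 0.0401). *Ifitm6* and *Igsf6* were low in CSS12 alone. *Kcnj2*, an inward rectifier potassium channel, had −0.96 (adjusted p = 0.0305), *Phlda1* −0.43 (adjusted p = 0.0401), *Fads2*, a fatty acid desaturase, −0.41 (adjusted p = 0.0313) and *Gm20554* −0.46. *Obox7*, a homeobox gene known from oocytes, had −0.90 (adjusted p = 0.0377) at a low level, 3.16 ± 0.16 in CSS12 and 4.06 ± 0.19 in C57BL/6J (SD, n = 3 each).

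**Figure D3:**
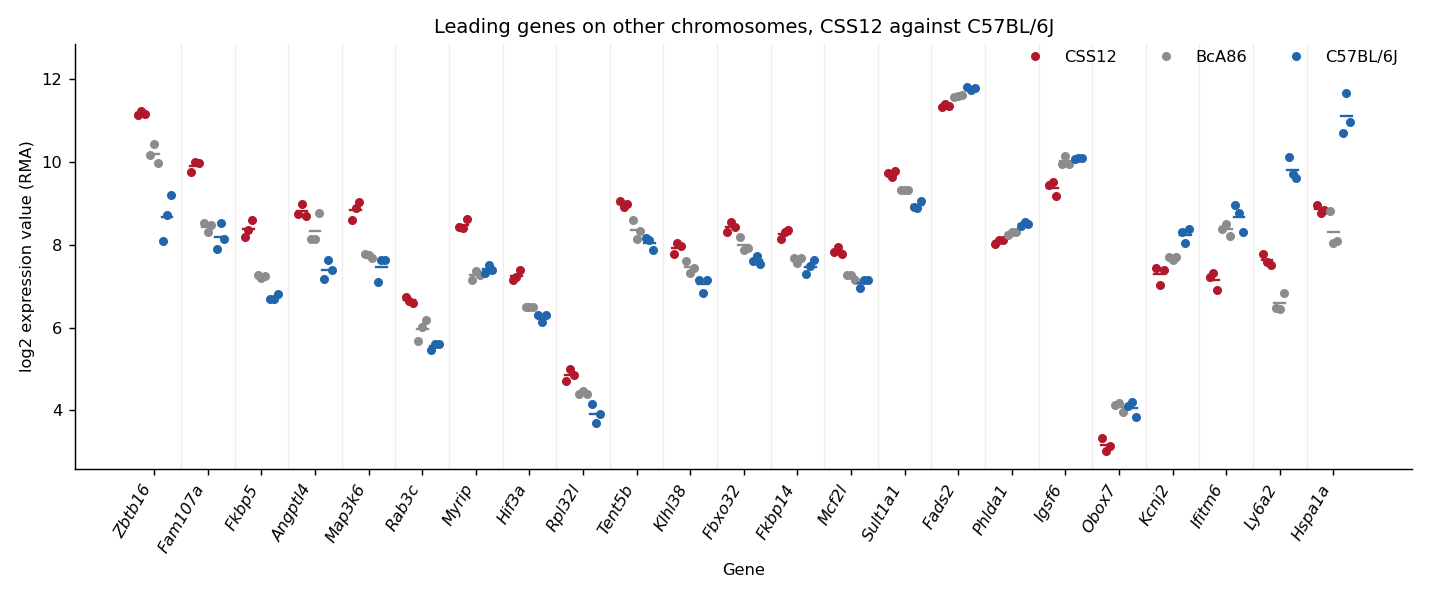
Log2 expression values of the named genes on other chromosomes, with CSS12, BcA86 and C57BL/6J mice as separate points in each gene (y axis, log2 value). CSS12 and C57BL/6J values do not overlap in any of them, which the rule for naming required. BcA86 values lie between for *Zbtb16* and with C57BL/6J for *Myrip*, *Ifitm6* and *Igsf6*.

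All 61 called probesets with a chromosome had 6 values that did not overlap, as did 15.9% of all probesets with a unique symbol. Of the 48 on other chromosomes, 7 were also called in BcA86 against C57BL/6J in the same direction, where the share called was 0.37%, and the 2 comparisons share the C57BL/6J arrays. CSS12 differed from BcA86 in 19 of the 48, beside 0.577% of the other chromosomes' probesets, although the CSS12 arrays that chose the 48 also enter this test. *Myrip* was higher in CSS12 than in BcA86 by 1.22 (adjusted p = 0.0024), *Fkbp5* by 1.14 (adjusted p = 0.00479), *Fam107a* by 1.48 (adjusted p = 0.00909), *Hif3a* by 0.75 (adjusted p = 0.0106) and *Map3k6* by 1.11 (adjusted p = 0.0316). *Zbtb16* had 0.98 (adjusted p = 0.139) and *Angptl4* 0.46 (adjusted p = 0.394), which did not pass.

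Several of the higher genes belong to a list of 20 glucocorticoid target genes, which was chosen with earlier results of these arrays known and is therefore a description. Of the 20, all measured, 8 were called higher and 0 lower, beside 0.143% of all probesets called higher, and 18 were above 0. The median log2 fold change was 0.63 in CSS12, beside 0.00 over all probesets, and 0.25 in BcA86 against C57BL/6J. The list averaged 9.71, 9.88 and 9.81 in the CSS12, 9.39, 9.21 and 9.32 in the BcA86 and 8.93, 9.16 and 9.01 in the C57BL/6J arrays, so the 3 strains fell in separate ranges. The called members are *Zbtb16*, *Fam107a*, *Fkbp5*, *Angptl4*, *Map3k6*, *Hif3a*, *Sult1a1* and *Klf9*. *Klf9*, a Krüppel-like transcription factor, was at 11.20, 11.12 and 11.27 in CSS12, 10.74, 10.64 and 10.69 in BcA86 and 10.52, 10.66 and 10.70 in C57BL/6J lungs (0.57, standard error 0.07, adjusted p = 0.028).

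Other members of the list did not pass. *Tsc22d3*, which encodes the glucocorticoid-induced leucine zipper protein, was at 8.98, 8.86 and 8.90 in CSS12, 8.02, 8.08 and 8.04 in BcA86 and 8.08, 8.37 and 8.41 in C57BL/6J lungs (0.63, standard error 0.09, adjusted p = 0.0513). Its groups did not overlap, and it was higher in CSS12 than in BcA86 by 0.87 (adjusted p = 0.0105). *Cdkn1a*, a cell cycle inhibitor, had 0.64 (adjusted p = 0.132), *Pdk4*, a kinase that inhibits pyruvate dehydrogenase, 0.97 (adjusted p = 0.231) and *Cyp2e1*, a cytochrome P450, 1.09 (adjusted p = 0.545). The members *Per1* with 0.16, *Mt1* with 0.07, *Nfkbia* with 0.08, *Errfi1* with −0.01 and *Dusp1* with −0.20 had overlapping groups. Without CSS12 replicate 2, 4 members were called and the median was 0.63, and the fewest, 2, were called without CSS12 replicate 3.

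**Figure D4:**
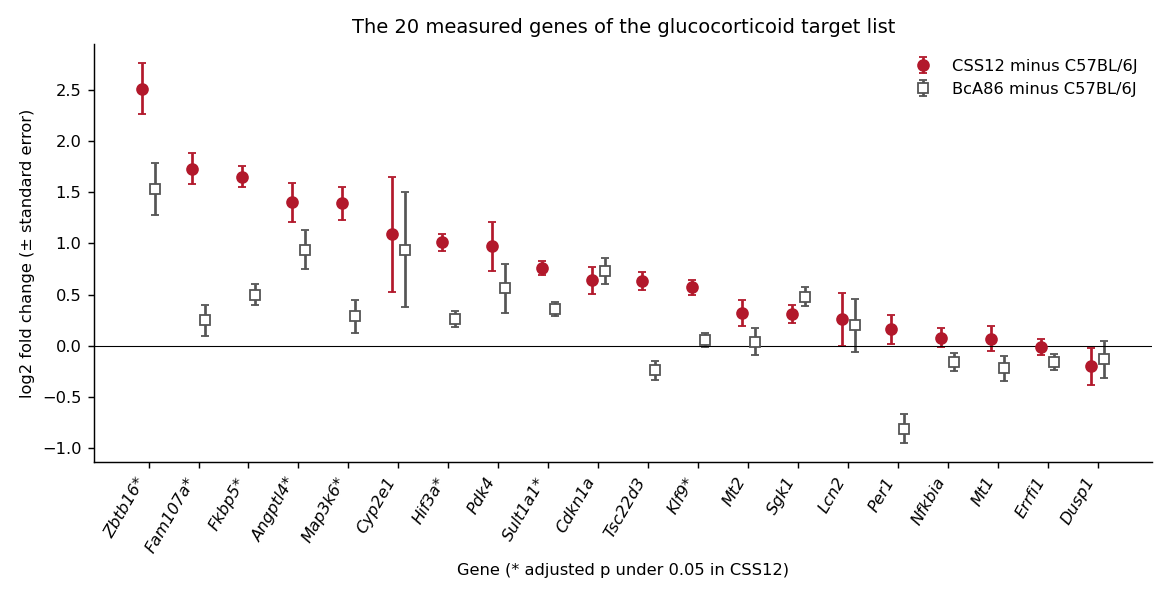
Log2 fold change against C57BL/6J with its standard error for the 20 genes of the glucocorticoid target list, CSS12 and BcA86 in each gene. CSS12 lies above 0 for 18 genes, highest for *Zbtb16* at 2.51, while *Errfi1* and *Dusp1* lie at −0.01 and −0.20.

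The glucocorticoid receptor binds a palindrome of 2 blocks spaced by 3 bases, searched here as GNACA, then any 3 bases, then TGTNC, which reads the same on both strands. In 250 bases upstream of RefSeq transcript starts (GRCm38.p6), 0.387% of 32851 windows and 0.44% of 27025 genes hold these letters. Of the 20 listed genes 18 have a window and 4 hold the motif, namely *Fam107a*, *Map3k6*, *Mt1* and *Sgk1*, and of the 6 called members with a window 2 hold it. The windows of *Fam107a* and *Map3k6* are shown as those of the called genes that hold a match, with the matching letters in capitals, for *Fam107a* at chr14:8309780-8310029 on the minus strand (match 118 to 106 bases upstream) and for *Map3k6* at chr4:133240568-133240817 on the plus strand (match 181 to 169 bases upstream). A match is a run of letters, and binding was not measured.
Fam107a: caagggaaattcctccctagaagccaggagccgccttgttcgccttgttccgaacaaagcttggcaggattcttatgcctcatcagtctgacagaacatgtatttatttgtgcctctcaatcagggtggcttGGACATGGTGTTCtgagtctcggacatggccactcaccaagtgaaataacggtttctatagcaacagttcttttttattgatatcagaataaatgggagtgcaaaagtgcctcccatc
Map3k6: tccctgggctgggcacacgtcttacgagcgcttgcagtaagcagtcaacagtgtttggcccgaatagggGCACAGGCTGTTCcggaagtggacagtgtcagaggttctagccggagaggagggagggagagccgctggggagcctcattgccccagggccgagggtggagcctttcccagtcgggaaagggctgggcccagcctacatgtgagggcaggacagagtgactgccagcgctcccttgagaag

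Lists of other signals were counted in the same way. Of 15 fasting and PPAR target genes, *Angptl4* was called higher, 0 were lower, 13 were above 0 and the median was 0.15. This call was lost when any single array other than BcA86 replicate 3 was left out. Of 13 core clock genes 0 were called (2 unadjusted, 2 Cyber-T) and the median was 0.06 in CSS12, against −0.30 in BcA86. *Cry1*, a repressor of the clock, had −0.37 (adjusted p = 0.0884) and *Npas2*, an activator, 0.32 (adjusted p = 0.632). *Arntl*, the central activator of the clock, was at 6.90, 7.28 and 6.96 in CSS12, 8.19, 8.32 and 8.88 in BcA86 and 6.66, 6.91 and 6.80 in C57BL/6J lungs. CSS12 was thus close to C57BL/6J in this gene (0.26, adjusted p = 0.67), and CSS12 differed from BcA86 (−1.41, adjusted p = 0.0219). Of 9 clock output genes 0 were called (1 unadjusted, 1 Cyber-T) with a median of −0.03, and *Hlf* had −0.21.

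Heat shock genes had a median of −0.31, with all 14 below 0, *Hspa1a* called lower and 0 higher. The list averaged 9.17 to 9.22 in CSS12, 8.76 to 9.0 in BcA86 and 9.25, 10.19 and 9.81 in C57BL/6J arrays, so the C57BL/6J arrays spread far more than those of CSS12. Without C57BL/6J replicate 2 the median was −0.10 and 0 were called, without C57BL/6J replicate 1 it was −0.51 and 3 were called, and without CSS12 replicate 2 it was −0.30 and 0 were called. The call of *Hspa1a* held in 2 of the 9 fits with an array left out. *Hspa1b*, the gene beside *Hspa1a*, had −1.88 (adjusted p = 0.149). Of 25 immediate early genes, which answer handling and stimulation within minutes, 0 were called (12 unadjusted, 7 Cyber-T), 23 were below 0 and the median was −0.27. Their mean was 8.91 to 8.98 in CSS12 and 9.06 to 9.51 in C57BL/6J arrays. *Nr4a1*, a nuclear receptor, was at 8.89, 8.92 and 9.04 in CSS12 and 11.39, 10.27 and 9.97 in C57BL/6J lungs (−1.59, adjusted p = 0.128), and *Egr1* had −0.88 (adjusted p = 0.451). Of 8 AHR target genes 0 were called (2 unadjusted, 1 Cyber-T) with a median of −0.01, and *Cyp1a1* had −1.27 (adjusted p = 0.27) and *Nqo1* −0.47. Of 11 HIF1A target genes 0 were called (2 unadjusted, 0 Cyber-T) with a median of −0.01, and *Bnip3* had 0.31 and *P4ha1* −0.19.

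Lists of blood and immune cell genes held 0 calls. Of 18 neutrophil genes 0 were called (11 unadjusted, 7 Cyber-T), 16 were below 0 and the median was −0.67, against 0.12 in BcA86. With 1 array left out the median ranged from −0.86 (without C57BL/6J replicate 3) to −0.40 (without C57BL/6J replicate 2). Their mean was 6.37 to 6.64 in CSS12, 7.22 to 7.37 in BcA86 and 6.79 to 7.63 in C57BL/6J arrays, with no overlap between CSS12 and the other strains. *S100a8*, a calcium-binding protein of neutrophils, was at 7.17, 5.88 and 5.97 in CSS12, 8.42, 8.32 and 8.49 in BcA86 and 7.83, 9.16 and 7.42 in C57BL/6J lungs (−1.80, adjusted p = 0.252). *Retnlg* had −1.63 (adjusted p = 0.177) and *Csf3r*, the receptor of the granulocyte growth factor, −1.14 (adjusted p = 0.0992), with −1.34 against BcA86 (adjusted p = 0.0343). *Ifitm6* and *Igsf6*, described above, were low in the same 3 arrays, and the part of fewer neutrophils in their values was not tested. Among the 20 genes of B and plasma cells 0 were called (10 unadjusted, 5 Cyber-T) and the median was −0.38 (−0.57 without C57BL/6J replicate 2, −0.23 without replicate 1), with list means of 7.34 to 7.81 in CSS12 and 7.70 to 8.15 in C57BL/6J arrays. *Cd79a*, of the B cell receptor, had −0.84 (adjusted p = 0.327) and *Ms4a1*, which encodes CD20, −0.75 (adjusted p = 0.337), and the part of fewer B cells in the *Ighm* values was not tested. Of 21 T and NK cell genes 0 were called (1 unadjusted, 0 Cyber-T) with a median of −0.05, and *Cd8b1* had −0.54 and *Cd8a* −0.42. Of 19 macrophage and monocyte genes 0 were called (2 unadjusted, 1 Cyber-T) with a median of 0.16, which was −0.04 without CSS12 replicate 2. *Chil3*, a secreted lectin of macrophages, was at 10.78, 12.48 and 10.67 in CSS12 and 10.67, 10.39 and 10.85 in C57BL/6J lungs, and *Ccl3* had 0.58. Of 5 erythroid genes 0 were called (1 unadjusted, 0 Cyber-T) with a median of 0.02, and *Slc4a1* had 0.36 and *Bpgm* 0.25. Of 25 interferon response genes 0 were called (10 unadjusted, 6 Cyber-T) with a median of 0.17, and *Gbp4* had 0.75 (adjusted p = 0.337) and *Iigp1* 0.71 (adjusted p = 0.195).

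Cell cycle genes had a median of 0.57, with 22 of 23 above 0 and 0 called (15 unadjusted, 9 Cyber-T). They averaged 6.91, 7.59 and 6.91 in CSS12 and 6.60, 6.67 and 6.68 in C57BL/6J arrays, and without CSS12 replicate 2 the median was 0.29. *Top2a*, a topoisomerase of dividing cells, was at 6.91, 7.92 and 6.82 in CSS12 and 6.05, 6.35 and 6.48 in C57BL/6J lungs (0.92, adjusted p = 0.301), and *Ube2c* had 0.81 (adjusted p = 0.175). Secretory airway genes had a median of 0.34 over 18 genes, with 12 above 0, 6 below 0 and 0 called. The 1 unadjusted member was lower, and the 2 Cyber-T members went 1 in each direction. *Agr3*, on Chromosome 12, had −1.22 (adjusted p = 0.187), and −1.43 in BcA86 against C57BL/6J. Without CSS12 replicate 2, which carried the *Clca1* and *Muc5ac* values given above, the list median was 0.03. Of 17 ciliated airway genes 0 were called (1 unadjusted, 2 Cyber-T) with a median of 0.06, and *Tubb4a*, a beta tubulin, had −0.52 (adjusted p = 0.0956) and *Cdhr3* −0.45. The 18 alveolar epithelial genes had a median of 0.01 with 0 called (2 unadjusted, 0 Cyber-T), and *Aqp5* had −0.21 and *Lpcat1* −0.16. The 18 lung endothelial genes had a median of 0.13 with 0 called (4 unadjusted, 0 Cyber-T), and *Sox17* had 0.31 and *Ramp2* 0.28.

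Of 31 extracellular matrix genes 0 were called (11 unadjusted, 8 Cyber-T), 28 were above 0 and the median was 0.17, with 0.09 without C57BL/6J replicate 3 and 0.32 without replicate 2. *Adamtsl2*, a binding partner of microfibrils, was at 9.20, 9.60 and 9.14 in CSS12 and 8.44, 8.65 and 8.29 in C57BL/6J lungs (0.86, adjusted p = 0.0813), and *Eln*, elastin, had 0.85 (adjusted p = 0.353). The 18 smooth muscle genes, which contract airways, had a median of −0.07 with 0 called (0 unadjusted, 0 Cyber-T), and *Kcnmb1* had −0.28 and *Pdlim3* −0.22. The 18 measured genes of muscarinic and other bronchomotor signalling had a median of 0.07 with 0 called (2 unadjusted, 1 Cyber-T), and *Rgs5* had 0.57 and *Rgs4* 0.28, both regulators of G protein signalling. Of 14 cardiomyocyte genes 0 were called (1 unadjusted, 0 Cyber-T) with a median of −0.27, and *Nppa* had −0.57 (0.03 without C57BL/6J replicate 2) and *Nppb* −0.53. Of 11 adipose genes 0 were called (2 unadjusted, 1 Cyber-T) with a median of 0.13, and *Lipe* and *Pck1* had 0.41. Of 11 thymus and lymph node genes 0 were called (1 unadjusted, 0 Cyber-T) with a median of −0.04, and *Themis* had −0.37 and *Dntt* −0.32. Of the 4 sex-linked genes 0 were called (0 unadjusted, 0 Cyber-T) with a median of 0.06, *Uty* had 0.12 and *Eif2s3y* −0.12, and all 9 arrays expressed the Y-linked genes of the list.

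**Figure D5:**
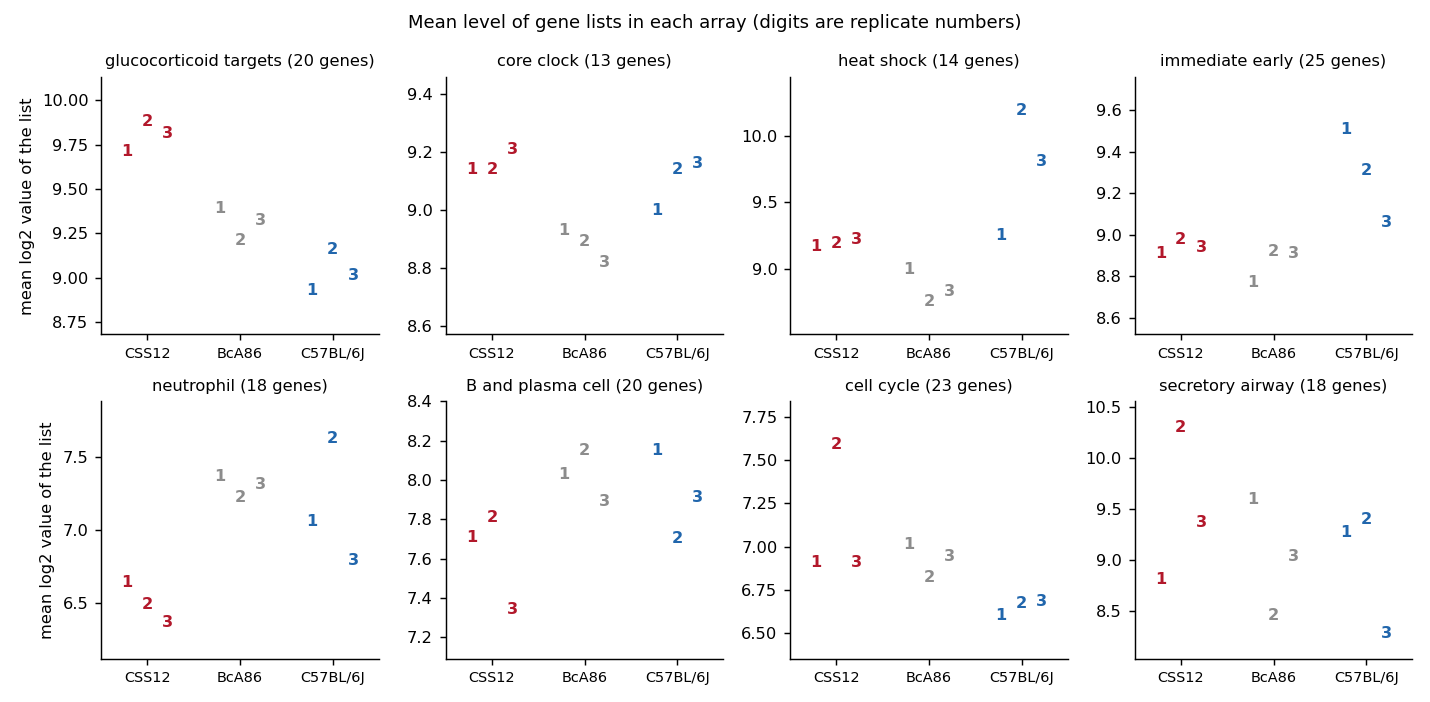
Mean log2 level of 8 gene lists in each array (y axis), with CSS12, BcA86 and C57BL/6J side by side and digits giving the replicate number. Glucocorticoid targets are highest in the 3 CSS12 arrays (9.71 to 9.88), neutrophil genes are lowest there (6.37 to 6.64), and CSS12 replicate 2 stands above its strain for cell cycle (7.59) and secretory airway genes (10.30).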

How the data were processed

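Total RNA of whole lung from 3 CSS12, 3 BcA86 and 3 C57BL/6J mice was hybridized to Affymetrix Gene 2.0 ST arrays, 1 per mouse, and per the labels all RNA was extracted together with a column kit. FlexArray was the program in which the authors ran RMA (robust multiarray average, a joint background correction, quantile normalization and probe summary). The deposited log2 expression values, 1 per probeset and array, were used without further normalization or filter. The FlexArray version is not given in the sources used here. Groups were taken from the sample labels, which give each array as a separate mouse. Gene symbols came from the platform's annotation, where 1820 probesets carry several symbols and 16004 none, and chromosomes and gene order from RefSeq genes. Multi-symbol and unnamed probesets were tested but not described. RMA summarizes the probes of a probeset across arrays, and a probe over an A/J variant can lower its value.

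Strain differences came from limma 3.58.1 (lmFit and eBayes, R 4.3.3) in 1 model of the 9 arrays, whose variances are shared, with contrasts of CSS12 with C57BL/6J, BcA86 with C57BL/6J and CSS12 with BcA86. P was adjusted by Benjamini-Hochberg over 41345 probesets. Tables were made in Python 3.11.15 with pandas 2.3.3. Named are, for Chromosome 12 and for the other chromosomes, the calls without overlap ranked by fold, up to 15 in each direction. Immunoglobulin segments, predicted genes, RIKEN clones and small RNAs stay out of that ranking. Where under 8 pass, genes with a fold of at least 1.4 and the smallest p fill the list. Of each gene list, up to 4 called members or else the 2 farthest from 0 are given. Also named are the study's candidates and landmarks. *Ighm*, *5830428M24Rik*, *Gm20554*, the 24 smaller increases and list members beyond these counts were chosen after their values were seen. The members and the 31 gene lists were chosen with earlier results of these data known, and each gene of a list was read from its brightest probeset.

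The alternatives were the methods' Cyber-T (window of 101 probesets and prior weight of 10, both set here, and called at the adjusted p in place of the methods' unadjusted p and 1.4-fold limit), the 6 compared arrays fitted alone, trended and robust variances, a block for the replicate number, the brighter probesets only (mean of 6.096 or more), arrays centred on their medians, array weights, 802 repeated probesets counted once, and each array left out. Precision is limited by having 3 arrays per strain, and an exact permutation test of 3 against 3 cannot go below p = 0.1. In simulated data for CSS12 against C57BL/6J, among 41345 probesets, the share that limma found was 44.8% at a 1.5-fold change (67 probesets), 74.6% at 2-fold (67) and 97% at 4-fold (66). It made 10 false calls, and Cyber-T 214. The simulated noise was drawn independently for each probeset and array, so deviations that genes of an array share were not part of it.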

Additional observations from a re-analysis of the deposited data

Results flagged for a closer look

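The difference between CSS12 and BcA86 passed an adjusted p of 0.05 from limma in 15 of the 34 named genes that were called between CSS12 and C57BL/6J, beside 0.716% of all probesets. The CSS12 arrays that chose these genes also enter this test. On Chromosome 12 the log2 difference, CSS12 minus BcA86, was 0.73 for *Klhl29*, −1.13 for *Sox11* and −0.95 for *Iah1*, which lie where CSS12 alone carries A/J sequence. On other chromosomes it was 1.48 for *Fam107a*, 1.14 for *Fkbp5*, 1.11 for *Map3k6*, 1.22 for *Myrip* and 0.75 for *Hif3a*. It was 0.63 for *Fkbp14*, 0.63 for *Mcf2l* and 0.40 for *Sult1a1*. Among genes lower in CSS12 than in C57BL/6J it was −1.22 for *Ifitm6*, −0.94 for *Obox7* and −0.63 for *Igsf6*. For *Ly6a2*, lower than in C57BL/6J in both strains, it was 1.03, since BcA86 was lower still. No strain has the 4 arrays that a test for outlying samples needs.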

How the results depend on the processing

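The counts depend on the test more than the folds do. No called value changed direction. Of the values of uncalled genes, that of *Nppa* (−0.57) ranged from −1.55 (without C57BL/6J replicate 3) to 0.03 (without C57BL/6J replicate 2) and that of *Eif2s3y* (−0.12) from −0.21 (without CSS12 replicate 2) to 0.02 (without CSS12 replicate 3). With an array left out, the median changed sign in 8 of 31 gene lists: macrophage and monocyte and clock output (−0.04 and 0.05 without CSS12 replicate 2), secretory and ciliated airway (−0.02 and −0.04 without C57BL/6J replicate 3), T and NK cell, AHR targets, alveolar epithelial and QTL genes. That of the serpins was 0.22 among the brighter probesets. Of the values of single probesets under the alternatives, 1516 kept their direction and side of the threshold, 474 lost the call and 35 gained it. Of the values of gene lists, 963 stayed within the spread or factor allowed and 72 moved. Of the counts of calls by direction, 22 stayed within a factor of 1.5, 36 fell below it and 10 rose above it. For Chromosome 12 and the other chromosomes (13 and 48 calls), Cyber-T gave 50 and 438, trended and robust variances 24 and 128, and the brighter probesets alone 25 and 148. In 6 arrays alone there were 0 and 3, with 108 and 1811 at an unadjusted p under 0.05. Median centring, array weights and counting repeated probesets once stayed within a factor of 1.5. Before *Hdac9*, from there to *Eapp*, to *Smoc1* and after it (3, 2, 4 and 4 calls), Cyber-T gave 12, 5, 10 and 23, and the 6 arrays alone 0 in each. Before *Hdac9* and after *Smoc1*, trended and robust variances gave 6 and 10, and the brighter probesets 7 and 10. The named genes that differ between CSS12 and BcA86 (15) were 24 with Cyber-T, and the called members of the glucocorticoid list (8) were 13 with Cyber-T and 1 in 6 arrays alone. The fit of 6 arrays has fewer samples to estimate the spread from. The causes of its changes and of the others were not tested. The imprinted genes of the Dlk1-Dio3 region gave no value without the dimmer probesets, since none of them was left.

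With 1 of the 9 arrays left out, Chromosome 12 had 2 (without CSS12 replicate 3) to 11 calls (without BcA86 replicate 1) and the other chromosomes 4 (without CSS12 replicate 3) to 26 (without C57BL/6J replicate 1 or BcA86 replicate 1). The counts without C57BL/6J replicates 1, 2 and 3 were 7, 6 and 3 on Chromosome 12 and 26, 19 and 14 elsewhere, without CSS12 replicates 1 and 2 they were 5 and 7, and 8 and 9 elsewhere, and without BcA86 replicates 2 and 3 they were 9 and 10, and 21 and 20 elsewhere. The 4 stretches ranged over 0 to 3, 1 to 2, 0 to 3 and 1 to 4 calls. The named genes that differ between CSS12 and BcA86 ranged from 4 (without CSS12 replicate 3) to 13 (without C57BL/6J replicate 1), and the called glucocorticoid list members from 2 to 6.

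With the replicate number as a block, Chromosome 12 had 4 calls, 0, 1, 1 and 2 in its stretches, and the other chromosomes 12, of which 11 were among the 48. Then 8 named genes differed between CSS12 and BcA86 and 4 glucocorticoid list members were called. Deviations of same-numbered CSS12 and C57BL/6J arrays correlated at 0.122, 0.0316 and 0.0698, and those of other-numbered arrays at −0.0976 to 0.0364. The main fit did not treat same-numbered arrays as pairs, and what a shared number stands for was not tested.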
